A study of Mus musculus with 8 samples.

Results

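Mouse embryonic stem cells targeted in Ssrp1 were compared with their own control cells across all genes. The comparison used 4 of the 8 libraries of the study, chosen by their titles, and all 54232 Ensembl mouse genes of the count table, with the ERCC spike-in rows left out. Of these genes, 15757 had enough counts to be tested. The cells were E14, an established mouse embryonic stem cell line whose strain is labelled 12910la, and both groups grew in serum with the cytokine LIF. The genotypes were control (2 libraries) and Ssrp1_KO (2 libraries), the latter made with Cas9 and a guide RNA. The labels do not say whether the knockout libraries come from 1 clone or from several, whether the control cells went through editing, or whether replicates are separate cultures. The p-values therefore measure only the spread between these libraries, which may be technical. The question was how the transcriptome differs after loss of Ssrp1.

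Ssrp1 and Supt16 form FACT, a histone chaperone that takes nucleosomes apart ahead of polymerases and puts them back behind them. FACT acts in transcription, replication and repair, and it helps to keep cryptic start sites silent. Embryonic stem cells in serum and LIF hold a network of pluripotency factors under opposing LIF, Nodal, FGF and Wnt signals, and a few cells of such a culture pass through a state that expresses genes of the early embryo.

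Total counts ranged from 15879056 to 16907068 per library, which limits what can be seen for genes of a few counts. The 10 markers of embryonic stem cells were detected in every library, with summed levels of 10610 and 8593 CPM (counts scaled to library size, with TMM factors) in controls and 8337 and 8037 CPM in knockout, and none of the 10 was called. Markers of other cells were low. The 10 fibroblast markers summed to 20.7 and 22.8 CPM in controls and 22.4 and 42.8 CPM in knockout, with 4 of them at 0 in each control and 3 and 2 at 0 in the knockout libraries. The 8 primitive endoderm markers summed to 4.53 and 9.06 against 32.2 and 25.3 CPM, and the 8 trophoblast markers to 74.9 and 75.8 against 94.4 and 141.9 CPM. The part of such cells in the results was not tested, and in bulk RNA fewer cells of a type and less RNA per cell cannot be told apart. The replicates of a group differed by more than counting noise, as the chi-square statistic averaged 46.0 per gene for the controls and 89.8 for the knockout libraries.

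The Ssrp1 transcript stood at 423.2 and 460 CPM in controls, at 399.6 CPM in knockout replicate 1 and at 119.7 CPM in knockout replicate 2. Only the second of these lay well below the controls, and the log2 change of -0.77 (SE 0.45) missed the edgeR test (adjusted p = 0.41). Because replicate 1 keeps most of the transcript, the groups below are the libraries labelled knockout, and each is shown on its own. The partner Supt16 measured 264.6 and 336.8 CPM in controls, and 368 and 315.6 CPM in replicates 1 and 2 of the knockout.

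Of the 15757 genes tested, 585 passed the edgeR quasi-likelihood test at an adjusted p under 0.05 (3.71%). Most were higher in the libraries labelled knockout: 534 genes rose (3.39%) and 51 fell (0.324%), so 91.3% of the calls were higher (80.7% with DESeq2). The genes that rose had a median fold of 7.15, and 36.0% of them had under 1 CPM in controls. The genes that fell had a median fold of 3.76, and 1 of 51 had under 1 CPM in controls. The filter on low counts sets this contrast in part, since a gene that is low in controls can enter the test only through the knockout libraries and so can only rise. Leaving out control replicate 1 left 16 higher and 4 lower calls, which were Ccnd2, Grb10, Lefty1 and Lefty2. Leaving out control replicate 2 left 300 higher and 58 lower calls. Without knockout replicate 1 there were 1150 and 362, and without knockout replicate 2 there were 1464 and 420.

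The genes that fell included secreted signals of the early embryo. Lefty1 and Lefty2 encode secreted antagonists of the growth factor Nodal. Lefty1 measured 164.2 and 110.9 CPM in controls against 10.2 and 2.14 CPM, and Lefty2 138.8 and 187.5 against 30.4 and 7.35 CPM. Both were lowest in knockout replicate 2. Neither overlapped between groups, which the rule for naming the largest changes required. The log2 changes were -4.49 (SE 0.60, edgeR adjusted p = 0.0072) and -3.12 (SE 0.54, adjusted p = 0.015). They were the 2 called genes of 30 tested in the Nodal and activin list, whose median log2 change was -0.19 beside 0.03 for all genes tested. Thus 6.67% of the list was called lower, where 0.324% of all tested genes were. Nodal itself measured 89.9 and 69.4 CPM in controls and 80.1 and 63.2 CPM in knockout. Its co-receptor gene Tdgf1 measured 1002 and 1547 against 1146 and 1226 CPM, and its transcription factor partner Foxh1 32.4 and 27.5 against 30.4 and 20.1 CPM. These 3, named after their values were seen, overlapped between the groups and were not called.

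Growth factor genes were the next group. Fgf17, a ligand of FGF receptors, measured 39.5 and 36.0 CPM in controls and 12.1 and 6.15 CPM in knockout (log2 change -2.05, SE 0.39, edgeR adjusted p = 0.02). Pdgfc, a ligand of PDGF receptors, went from 18.8 and 17.8 to 4.08 and 2.63 CPM (log2 change -2.45, SE 0.45). Fgf18, named after its values were seen, fell 8.45-fold on counts of 50 and 49 against 3 and 9. Of the 30 tested genes in the FGF and ERK list, Fgf17 and Pdgfc were called, none rose, and the median log2 change was -0.02. The share called lower was 6.67%, beside 0.324% of all tested genes. Wnt5a, a ligand of noncanonical Wnt signalling, had 30 and 11 counts in controls and 1 and 0 in knockout, a ratio of 41.7 with an exact 95% binomial interval of 7.07 to 1685 that covers counting error only. It was the only called gene of 26 tested in the Wnt list (median -0.15), and it did not pass after correction for GC content and length (adjusted p = 0.054). Gli1, a transcription factor and direct target of Hedgehog signalling, named after its values were seen, measured 66.9 and 66.9 CPM in controls and 16.5 and 17.2 CPM in knockout. That was a log2 change of -1.99 (SE 0.29, adjusted p = 0.0099), with close replicates on both sides.

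Of 19 tested neural and ectoderm genes, 2 fell, Ntn1 and Crmp1. Ntn1, a secreted cue for growing axons, measured 82.0 and 79.5 CPM in controls and 19.01 and 8.62 CPM in knockout (log2 change -2.55, SE 0.39, edgeR adjusted p = 0.011). Crmp1, a cytosolic mediator of axon guidance signals, measured 46.9 and 47.1 against 10.5 and 10.2 CPM (log2 change -2.19, SE 0.32). Gng3, a G protein gamma subunit of neurons, went from 79.3 and 43.7 to 14.8 and 14.4 CPM. In all 3 genes the libraries labelled knockout lay below both controls, which the rule for naming the largest changes required. The list of 19, with 10.5% of its genes called lower where 0.324% of all tested genes were, had a median log2 change of -0.74. Ntn1 and Crmp1 were also the genes that fell among 40 tested axon guidance genes, whose median was -0.11. Of the 19, 7 lay more than 2-fold below both controls in replicate 1, where 6.51% of all tested genes did, and 7 in replicate 2, where 4.37% did. Pax6, a regulator of eye and brain development, had log2 -1.72 and Neurod1, a neurogenic factor, -2.06 without passing. The receptor for Ntn1, Dcc, went the other way, from 9 and 4 counts to 39 and 122 (log2 change 3.50, SE 0.79), a call lost after correction for GC content and length (adjusted p = 0.076). Stmn3 and Ina, a neuronal tubulin-binding protein and a neuronal intermediate filament, were further genes that fell, with log2 changes of -1.90 (SE 0.42) and -1.85 (SE 0.45). Pax6, Neurod1, Stmn3 and Ina were named after their values were seen. The tubulin gene Tuba4a fell 2.56-fold, from 435.4 and 239.8 to 126.1 and 137.6 CPM. Of 56 tested tubulin and kinesin genes (median log2 change -0.14) it alone fell, and the kinesin gene Kif18a rose 2.15 (SE 0.47) on the log2 scale, a call also lost after the GC and length correction (adjusted p = 0.12). Ina and Tuba4a did not pass after the same correction (adjusted p = 0.10 and 0.082).

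Cell cycle and growth control genes moved in both directions. Ccnd2, which encodes cyclin D2, measured 23.6 and 37.2 CPM in controls and 2.37 and 1.98 CPM in knockout (log2 change -3.80, SE 0.43, edgeR adjusted p = 0.0055). Ccne2, which encodes cyclin E2, rose from 3.22 and 3.00 to 21.6 and 13.1 CPM (log2 change 2.48, SE 0.47), and Orc2, a subunit of the origin recognition complex, rose 1.82 (SE 0.37) on the log2 scale. The calls of Ccne2 and Orc2 ended after the GC and length correction (adjusted p = 0.23 and 0.057). The other 55 tested members of the replication and G1/S list were not called. Grb10, an imprinted adaptor that restrains insulin and growth factor receptors, measured 94.3 and 99.8 CPM in controls and 21.6 and 16.7 CPM in knockout (log2 change -2.34, SE 0.30, adjusted p = 0.007). Of 40 tested imprinted genes it alone fell. The ubiquitin ligase gene Ube3a and the growth factor gene Igf2 rose, the latter on 1 control count with a ratio of 33.5 (interval 5.61 to 1360). After correction for GC content and length, Ube3a changed by 1.20 and no longer passed (adjusted p = 0.0697).

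The pluripotency network was largely not called. Pou5f1 measured 1568 and 1141 CPM in controls and 1019 and 890 CPM in knockout, Sox2 350.2 and 376.3 against 581.5 and 352.3 CPM, and Nanog 898.8 and 756.6 against 1169 and 1193 CPM. None of these 3 core transcription factors passed the edgeR test (adjusted p = 0.45, 0.60 and 0.41). Of 47 tested core and naive genes, 2 fell and 3 rose, around a median log2 change of -0.10. These were 4.3% and 6.4% of the list, where 0.324% of all tested genes fell and 3.39% rose. Nr0b1, an orphan nuclear receptor that binds Pou5f1, measured 204.7 and 93.9 CPM in controls and 54.5 and 24.97 CPM in knockout. Tcl1, a coactivator of Akt, measured 260.9 and 176.8 against 84.0 and 97.4 CPM. Both were lower in each knockout library than in each control, but after the GC and length correction neither passed (adjusted p = 0.073 and 0.052). Those that rose were the zinc finger genes Rex2 and Zfp281 and Rif1, a telomere and replication timing factor, and no core and naive gene was called after that correction.

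Further genes that fell were named after their values were seen. Nfkbia, the inhibitor of NF-kappa-B, measured 88.9 and 53.7 CPM in controls against 18.8 and 28.04 CPM. Myo1f, a myosin of blood cells, fell 1.95 (SE 0.35) on the log2 scale. None of 27 tested interferon and innate sensing genes passed the edgeR test (median log2 change 0.079), and at an unadjusted p under 0.05 there was 1 lower and none higher. Enzymes of amino acid metabolism were Bcat2, which starts the breakdown of branched-chain amino acids, and Fah, the last enzyme of tyrosine breakdown. Their log2 changes were -1.18 (SE 0.27) and -1.78 (SE 0.35). Bcat2 did not pass after the GC and length correction (adjusted p = 0.084). Hist1h1c, a linker histone gene, was the called member of 55 tested histone genes, at 52.1 and 37.3 against 13.6 and 11.3 CPM. Of the histone list 1.82% was called lower, where 0.324% of all tested genes were, and its median log2 change was -0.80. In replicate 1, 9 members lay more than 2-fold below both controls, where 6.51% of all tested genes did. In replicate 2, 20 members did, where 4.37% of all tested genes did. RNA was selected by its poly(A) tail, which canonical histone transcripts lack.

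**Figure D1:**
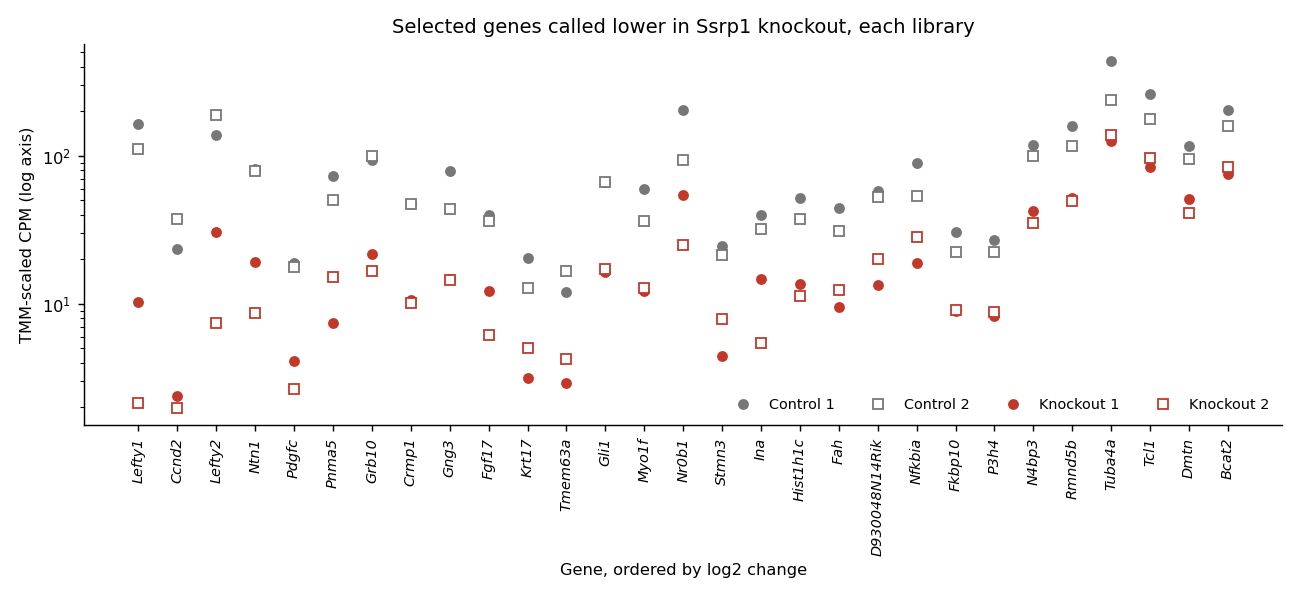
Selected genes called lower in the libraries labelled knockout, ordered by log2 change, with 1 point per library (grey controls, red knockout; circles replicate 1, open squares replicate 2) on a log axis of TMM-scaled CPM. In Lefty1, Lefty2 and Ntn1 the lowest point is knockout replicate 2, while in Pnma5 and Krt17 it is knockout replicate 1.

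Genes that fell lay next to each other in 4 places. Of the 51, 11 (21.6%) had another gene that fell within 100 kb, against 1.33% of all genes tested, and stretches of at least 2 called genes with gaps of up to 300 kb held 12 of the 51. On chromosome 1 (180893108 to 180975112, mm10) Lefty2, Lefty1 and Tmem63a, an ion channel gene, lie in 1 stretch, and all 3 fell. Tmem63a went from 11.95 and 16.5 to 2.90 and 4.23 CPM. On chromosome 11 (51623671 to 51657681) all 3 tested genes fell: Rmnd5b, a part of the CTLH ubiquitin ligase, N4bp3, and D930048N14Rik, a protein-coding gene that starts 111 bases from N4bp3 on the other strand. Their levels were 159 and 116.1 against 52.2 and 49.7 CPM for Rmnd5b, 119.1 and 99.1 against 42.3 and 35.3 CPM for N4bp3, and 57.8 and 53.1 against 13.5 and 20.03 CPM for D930048N14Rik. The knockout libraries were close to each other in the first 2 of these genes.

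The remaining places were smaller. Farther along chromosome 11 (100256217 to 100424824) the keratin gene Krt17 and the neighbours P3h4 and Fkbp10 fell among 8 tested genes. P3h4 and Fkbp10 both encode proteins of the endoplasmic reticulum that act in collagen modification, their bodies lie 860 bases apart on opposite strands, and they measured 26.8 and 22.3 against 8.22 and 8.78 CPM and 30.4 and 22.3 against 8.95 and 9.11 CPM. On chromosome 14 (70601263 to 70642268) Fgf17 and Dmtn, an actin-bundling protein gene whose body lies 154 bases away on the same strand, both fell. No pair of called neighbours in these stretches shared bases. Under the GC and length correction Tmem63a, N4bp3, P3h4, Fkbp10 and Dmtn no longer passed (edgeR adjusted p between 0.053 for Tmem63a and 0.14 for Dmtn).

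Genes that rose lay close together too. Of the 534, 189 (35.4%) had another gene that rose within 100 kb, against 7.59% of all genes tested. In all, 15 stretches of 4 or more such genes held 122 of the 534 (22.9%) and no gene that fell. Most were families of the 2-cell-like state, the rare state noted above, or groups of zinc finger genes. The members of such a family can be nearly the same in sequence, and how reads matching more than 1 of them were counted is not given in the sources used here. Values of single members are therefore uncertain.

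The Zscan4 cluster on chromosome 7 (10900740 to 11614112) encodes zinc finger proteins of the 2-cell-like state that act at telomeres. Of 10 tested genes 8 rose, and their summed level was higher in both libraries labelled knockout than in either control, as the plot of stretches shows. Zscan4c, for example, measured 14.9 and 53.4 CPM in controls and 100 and 327 CPM in knockout (log2 change 2.64, SE 0.62, edgeR adjusted p = 0.042), with control replicates that differed from each other as well. The promoters of 4 members are printed because these genes rose together and the letters show how alike they are. They come from RefSeq (GRCm38.p6) as windows of 150 bases, with the longest run that all 4 hold in common in capitals, 55 bases that begin with a TATA-box-like stretch. They lie at chr7:10905001-10905150 on the minus strand, chr7:11005641-11005790 on the plus strand, chr7:11166114-11166263 on the minus strand and chr7:11397815-11397964 on the plus strand.
Zscan4b: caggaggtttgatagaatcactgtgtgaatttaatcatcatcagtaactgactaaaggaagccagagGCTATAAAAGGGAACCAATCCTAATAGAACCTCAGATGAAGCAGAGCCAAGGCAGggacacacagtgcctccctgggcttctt
Zscan4c: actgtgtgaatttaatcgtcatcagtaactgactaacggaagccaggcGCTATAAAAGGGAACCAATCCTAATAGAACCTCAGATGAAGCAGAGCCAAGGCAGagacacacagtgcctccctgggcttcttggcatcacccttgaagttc
Zscan4d: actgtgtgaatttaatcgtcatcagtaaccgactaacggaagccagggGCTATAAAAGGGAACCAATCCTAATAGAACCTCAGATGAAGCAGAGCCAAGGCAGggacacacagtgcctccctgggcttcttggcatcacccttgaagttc
Zscan4f: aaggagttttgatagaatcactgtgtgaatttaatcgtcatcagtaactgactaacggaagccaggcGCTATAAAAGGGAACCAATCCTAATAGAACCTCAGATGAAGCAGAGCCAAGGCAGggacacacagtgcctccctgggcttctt
Among 27025 genes with a RefSeq promoter entry, these 4 alone hold the run. The run was taken from these 4 genes, and they were chosen because they rose, so it cannot be set against their change.

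Zinc finger genes stood in several further stretches. On chromosome 2 (176423594 to 178407685) 16 of 27 tested genes rose, among them Zfp970, Zfp931 and Zfp973. Zfp970 had counts of 3 and 9 in controls and 112 and 80 in knockout, and Zfp931 had 3 and 7 against 102 and 70. Zfp973 had 0 and 2 counts against 15 and 27, a ratio of 20.7 (interval 5.38 to 176.2). All 3 started from very low control levels. They were separated between the groups, which the rule for naming the largest changes required of Zfp970 and Zfp931. Gm14305, a further member, overlaps the body of Zfp973 on the same strand, so some reads may belong to either. The promoters of 3 members are printed to show a run of 40 bases, in capitals, that recurs through the cluster. They are RefSeq windows at chr2:177464573-177464722 (plus strand), chr2:178078484-178078633 (minus strand) and chr2:176670384-176670533 (plus strand).
Zfp970: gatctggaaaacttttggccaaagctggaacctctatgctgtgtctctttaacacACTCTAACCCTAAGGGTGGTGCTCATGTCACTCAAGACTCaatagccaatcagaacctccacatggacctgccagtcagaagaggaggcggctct
Zfp931: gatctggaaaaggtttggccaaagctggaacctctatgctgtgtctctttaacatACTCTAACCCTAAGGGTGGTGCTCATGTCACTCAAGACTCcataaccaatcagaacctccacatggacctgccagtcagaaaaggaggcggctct
Zfp973: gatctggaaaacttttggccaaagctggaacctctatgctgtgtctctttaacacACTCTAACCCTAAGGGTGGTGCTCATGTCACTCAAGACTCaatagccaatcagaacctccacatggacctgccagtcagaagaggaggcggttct
The run was taken as the longest that these 3 and Gm14305 hold in common, and all 4 had been called higher. It was found in the promoters of 27 genes, 25 of them tested. Of these 11 rose, the 4 included, and none fell, where 3.39% and 0.324% of all tested genes did. Genes with the run and genes without a call therefore stand side by side. The run was taken from genes that rose, and members low in controls can pass the filter through the knockout libraries alone. For both reasons the count of 11 cannot be set against those shares.

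**Figure D2:**
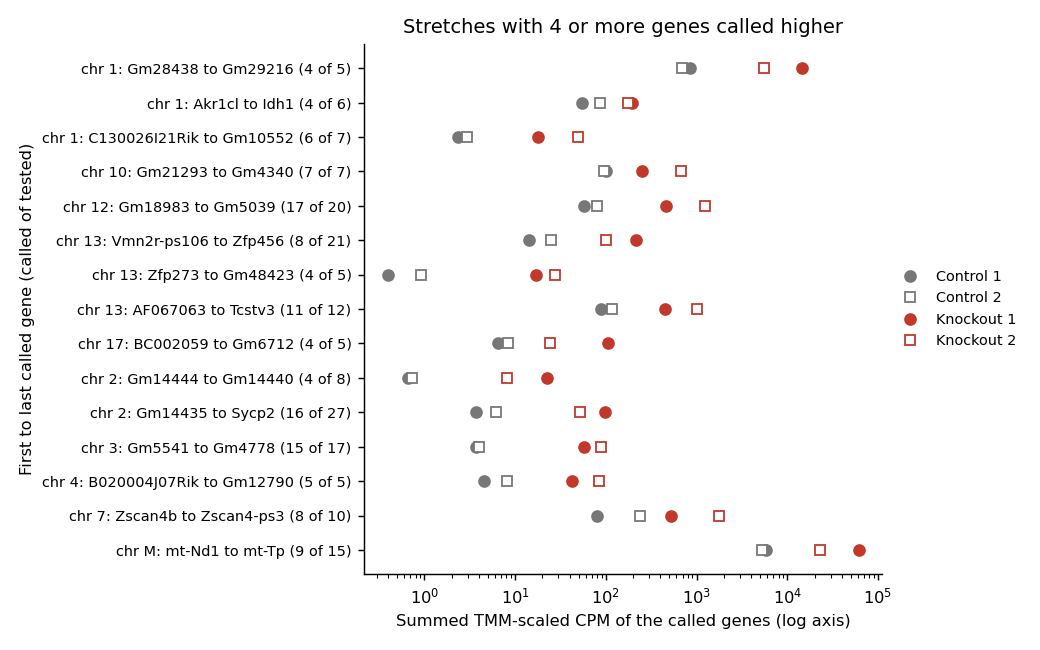
Summed TMM-scaled CPM (log axis) of the called genes in each of the 15 stretches with 4 or more genes that rose, 1 point per library; labels give the chromosome, the first and last called gene, and how many of the tested genes were called. Every red knockout point lies to the right of both grey control points; in the stretches of chromosomes 7, 10, 12, 3 and 4 knockout replicate 2 is the higher, and in those of chromosomes 2, 17 and M replicate 1.

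The order of the knockout libraries differed between these stretches. In the Eif1a-like genes of chromosome 12, 17 of 20 tested genes rose, and the median log2 ratio to the control mean, computed with 0.5 CPM added, was 2.12 in replicate 1 and 3.83 in replicate 2. The Tcstv and related genes of chromosome 13 (11 of 12) had 2.46 and 3.17, and the Tdpoz genes of chromosome 3 (15 of 17), which encode BTB and MATH domain proteins, had 2.19 and 2.37. Some stretches with zinc finger genes had the opposite order. The large one on chromosome 2 had 3.09 and 2.10, that of chromosome 13 from 66682839 to 67375810 (8 of 21) had 3.14 and 1.71, and that of chromosome 17 (4 of 5) had 3.39 and 1.26. In the last, Zfp97 measured 1.44 and 3.12 CPM in controls and 40.7 and 5.43 CPM in knockout. Other stretches with zinc finger genes were higher in replicate 2. The Zscan4 cluster had 1.70 and 3.37, and the chromosome 13 stretch from 67813740 to 67985971, which holds Zfp273, had 2.82 and 3.50. Zfp273 itself had the opposite order, at 4.869 CPM in knockout replicate 1 and 2.415 CPM in replicate 2. The other called genes of that stretch, Gm7969, Gm48419 and Gm48423, are long intergenic noncoding genes. Both replicates share the controls, so the ratios are given side by side only.

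As a family, the zinc finger genes lay further above the controls in replicate 1. Of 403 tested genes named Zfp, Zkscan or Zscan, 38 rose and none fell in the edgeR test, with a median log2 change of 0.47. The share that rose was 9.43%, where 3.39% of all tested genes did. In replicate 1, 154 of them lay more than 2-fold above both controls, where 11.2% of all tested genes did. In replicate 2, 55 did, where 10.3% of all tested genes did. After correction for GC content and length 6 members of the list were called higher, where 1.37% of all tested genes were. The median was then 0.15.

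**Figure D3:**
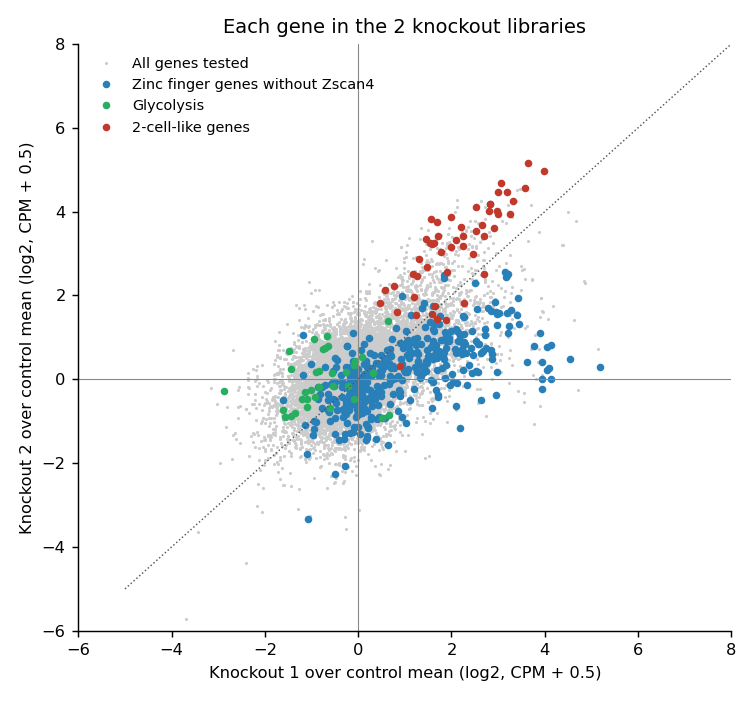
Each tested gene by its log2 ratio to the control mean in knockout replicate 1 (horizontal) and replicate 2 (vertical), with 0.5 CPM added; both axes share the same controls. Zinc finger genes other than Zscan4 (blue) spread to the right along the horizontal axis, 2-cell-like genes (red) lie mostly above the dotted line of equal ratios, and glycolysis genes (green) lie mostly to its upper left.

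Among genes with a mean of at least 10 CPM over the 4 libraries, predicted and mitochondrial genes left out, levels differed between the knockout libraries by up to 31.9-fold. The neighbours Zfp990, Rex2, Zfp987, Zfp979 and Zfp980 on chromosome 4 were high in replicate 1 only. Zfp990 measured 4.595 and 5.55 CPM in controls, 201.1 CPM in replicate 1 and 6.31 CPM in replicate 2, and Zfp979 7.88 and 11.3, then 177.1 and 9.66 CPM. Zfp808 on chromosome 13 had the same pattern, with 65.1 and 3.79 CPM in knockout against 3.09 and 4.42 CPM. Of these 6 genes only Rex2 passed the edgeR test (adjusted p = 0.045), and without replicate 1 its log2 change was 0.73 (adjusted p = 0.46). Genes that were lower in replicate 1 included Ldhb, the gene of a lactate dehydrogenase subunit, at 550 and 427.9 CPM in controls against 65.9 and 401.5 CPM, and Ndufa4l2, a mitochondrial protein induced in hypoxia, at 28.3 and 38.4 against 6.05 and 37.3 CPM. Hspa1a, an inducible heat shock protein gene, measured 33.4 CPM in replicate 2 and 1.71 to 4.14 CPM elsewhere.

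Metabolic and signalling lists also differed between the replicates. No glycolysis gene was called. The 34 tested glycolysis genes had a median log2 ratio of -0.80 in replicate 1 and -0.16 in replicate 2. Of them 7 and 0 lay more than 2-fold below both controls, where 6.51% and 4.37% of all tested genes did. Eno1, the enolase gene, measured 7241 and 5593 CPM in controls and 2107 and 3868 CPM in knockout, and Gapdh 9016 and 6414 against 3013 and 4390 CPM. Both lay below the controls in each knockout library without passing the test. In the FGF and ERK list, 3 of 30 genes in replicate 1 and 8 in replicate 2 lay more than 2-fold below both controls, where 6.51% and 4.37% of all tested genes did. The feedback inhibitor gene Spry4 measured 221.5 and 191.2 CPM in controls, 210.1 CPM in replicate 1 and 23.4 CPM in replicate 2. The immediate early gene Egr1 measured 19.9 and 17.8, then 51.9 and 4.81 CPM, and Myc, a growth-promoting transcription factor, 35.8 and 36.9, then 50.7 and 7.14 CPM. These 5 genes were named after their values were seen. Replicate 2 is also the library with the lower Ssrp1 transcript, and the part of that difference was not tested.

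Among well-expressed genes that rose were those of the endoplasmic reticulum. Hspa5, the chaperone that senses unfolded proteins there, measured 266.1 and 239.4 CPM in controls and 643.8 and 800 CPM in knockout (log2 change 1.51, SE 0.29, edgeR adjusted p = 0.02). Pdia3, a protein disulfide isomerase, went from 75.7 and 112.7 to 471.1 and 396.3 CPM (log2 change 2.20, SE 0.30). Hsp90b1 and Dnajb9, further chaperones of this compartment, had log2 changes of 1.33 (SE 0.28) and 1.52 (SE 0.37). These 4 were the called members of 30 tested genes of the unfolded protein and heat shock responses, with a median of 0.26. None of the 30 fell, and 13.3% rose, where 3.39% of all tested genes did. After the GC and length correction Pdia3 remained called at 1.95 and was the one called gene of the list, as Hspa5 changed by 1.18 (adjusted p = 0.073), Hsp90b1 by 0.67 (adjusted p = 0.26) and Dnajb9 by 0.61 (adjusted p = 0.40).

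Calcoco2, an autophagy receptor gene, had the smallest adjusted p of all genes tested, at 14.6 and 12.97 CPM in controls and 208.9 and 162.6 CPM in knockout (log2 change 3.75, SE 0.30, edgeR adjusted p = 0.0015). Ly6a, the gene of a surface protein of progenitor cells, had 14 and 10 counts against 418 and 350. Rpl22l1, a paralogue of the ribosomal protein gene Rpl22, measured 14.4 and 13.9 against 75.9 and 108.9 CPM. It was the only called gene of 84 cytosolic ribosomal protein genes, whose median log2 change was -0.70. Ccn1 and Ccn2, secreted matrix proteins and targets of the Hippo pathway effector Yap, rose from 6.10 and 5.61 to 19.5 and 27 CPM and from 5.97 and 7.19 to 26.1 and 39.5 CPM. They were the called members of 25 tested Notch and Hippo genes (8.0%, where 3.39% of all tested genes rose), a list with a median log2 change of 0.18. Calcoco2, Ly6a, Rpl22l1, Ccn1 and Ccn2 all stayed called after the GC and length correction. Calcoco2, Ly6a and Rpl22l1 also stayed called without control replicate 1.

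Further well-expressed genes that rose were chosen after their values were seen. Xpo1, the main nuclear export receptor, measured 77.9 and 120 CPM in controls and 635.2 and 337.3 CPM in knockout (log2 change 2.30, SE 0.37, edgeR adjusted p = 0.013). The import receptor genes Ipo7 and Kpna1 rose 3.84-fold and 3.64-fold, and Ranbp2, a nucleoporin gene, 3.95-fold. For cell division, Esco2, which acetylates cohesin, rose 4.37-fold and the condensin gene Smc4 4.07-fold. Bub1 and Mad2l1, which act in the spindle checkpoint, rose 2.80-fold and 2.71-fold and were the called members of 40 tested G2/M and mitosis genes, a list with a median log2 change of -0.11 and 5.0% called higher, where 3.39% of all tested genes were. Transcripts of these genes are rich in A and T, with a GC content of 36.7% for Esco2 to 42.1% for Kpna1. After the GC and length correction Bub1 and Mad2l1 had log2 changes of 0.72 and 0.56 and did not pass. Ipo7, Ranbp2, Esco2 and Smc4 did not pass either, while Xpo1 (1.46) and Kpna1 (1.25) stayed called.

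Chromatin genes that rose were low in GC content as well. Suz12 and Mtf2, a core and an accessory subunit of the polycomb complex PRC2, measured 69.5 and 96.8 against 294 and 260 CPM and 68 and 140.5 against 355 and 251 CPM. With Eloc, the gene of elongin C, they were the 3 called of 15 tested PRC2 genes (median log2 change 0.65). Beside these 3 of 15, 3.39% of all tested genes rose. Hells, a remodeller that assists DNA methylation, measured 74.6 and 104.9 against 495.5 and 215.8 CPM, Nap1l1, a histone chaperone, 262.8 and 418.6 against 1156 and 857.1 CPM, and Atrx, which deposits histone H3.3 with Daxx, 37.3 and 57.4 against 217.8 and 93.9 CPM. In each of these genes both knockout libraries lay above both controls. After the GC and length correction none of them passed, and the log2 changes were 1.05 for Suz12, 0.47 for Mtf2, 0.36 for Eloc, 0.74 for Hells, 0.66 for Nap1l1 and 0.82 for Atrx.

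Calls followed transcript GC content across all genes. In the quintile of tested genes with the lowest transcript GC content (29.6% to 44.1%), 10.1% rose, and the share fell in each step to 0.318% in the quintile with the highest. The median log2 change went from 0.69 in the first quintile to -0.18 in the last. Genes that rose had a median GC content of 42.1%, all tested genes 49.9% and genes that fell 53.8%. With spline corrections for GC content and length, 216 of 15729 genes rose (1.37%) and 71 fell (0.451%), so the higher share of the calls was 75.3% in place of 91.3%. Of the 216, 207 were among the 534, and of the 71, 33 were among the 51. In the lowest quintile the correction turned 318 higher and 2 lower calls into 59 and 34. Ccnd2, Lefty1, Lefty2, Grb10, Ntn1, Crmp1, Gli1 and Fgf17 stayed called lower.

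**Figure D4:**
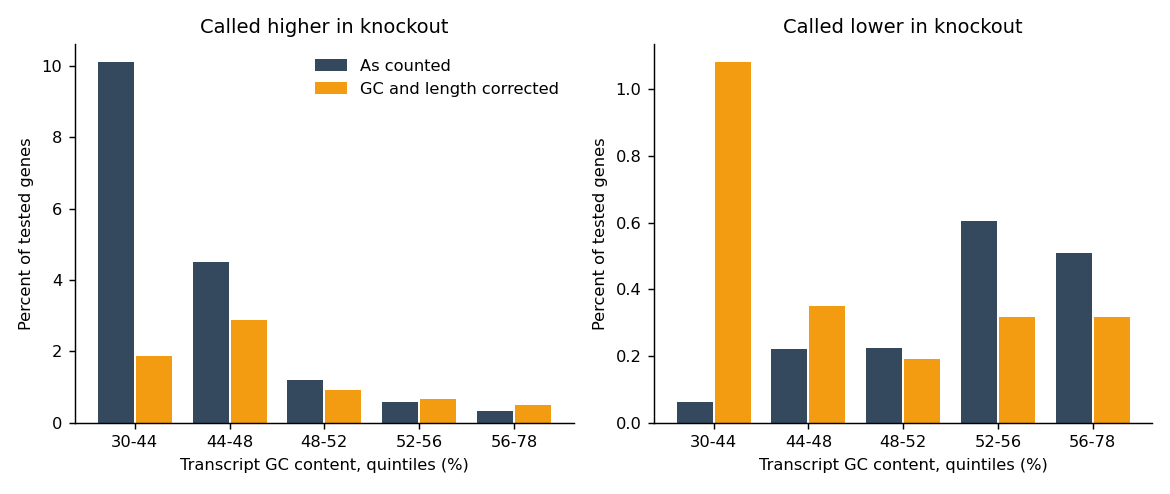
Percent of tested genes called higher (left) and lower (right) in the libraries labelled knockout, by quintiles of transcript GC content, as counted (dark) and after the GC and length correction (orange). As counted, 10.1% of genes in the lowest quintile rose and 0.318% in the highest; corrected, 1.88% and 0.509%.

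Gene lists differed in how far they moved and in how far the correction mattered. The 2-cell-like list kept most of its calls. Of its 50 tested genes 38 rose and none fell, where 3.39% and 0.324% of all tested genes did. Members very low in controls can pass the filter through the knockout libraries alone and so could only rise. After the correction 27 stayed called, where 1.37% of all tested genes were called higher. The median was 3.29 before the correction and 2.90 after it. Every called member but Zfp809, a zinc finger gene that silences retroviruses, changed by more than 2 on the log2 scale. The 5 tested Usp17l members that rose, deubiquitinase genes of that state, ran from 2.85 for Usp17le to 3.72 for Usp17la. Of the mitochondrially encoded genes 8 of 13 rose and 1 stayed called after the correction, and the median went from 2.89 to 1.19. The respiratory subunit gene mt-Co2 measured 398 and 367.9 CPM in controls and 5811 and 1468 CPM in knockout. The 4 called genes of a stretch on chromosome 1 (24612775 to 24616197) have counts close to those of mitochondrial genes, for instance 4098, 4001, 78873 and 41973 for Gm28437 beside 4052, 4013, 78024 and 41376 for mt-Co3, so reads of the 2 cannot be told apart.

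**Figure D5:**
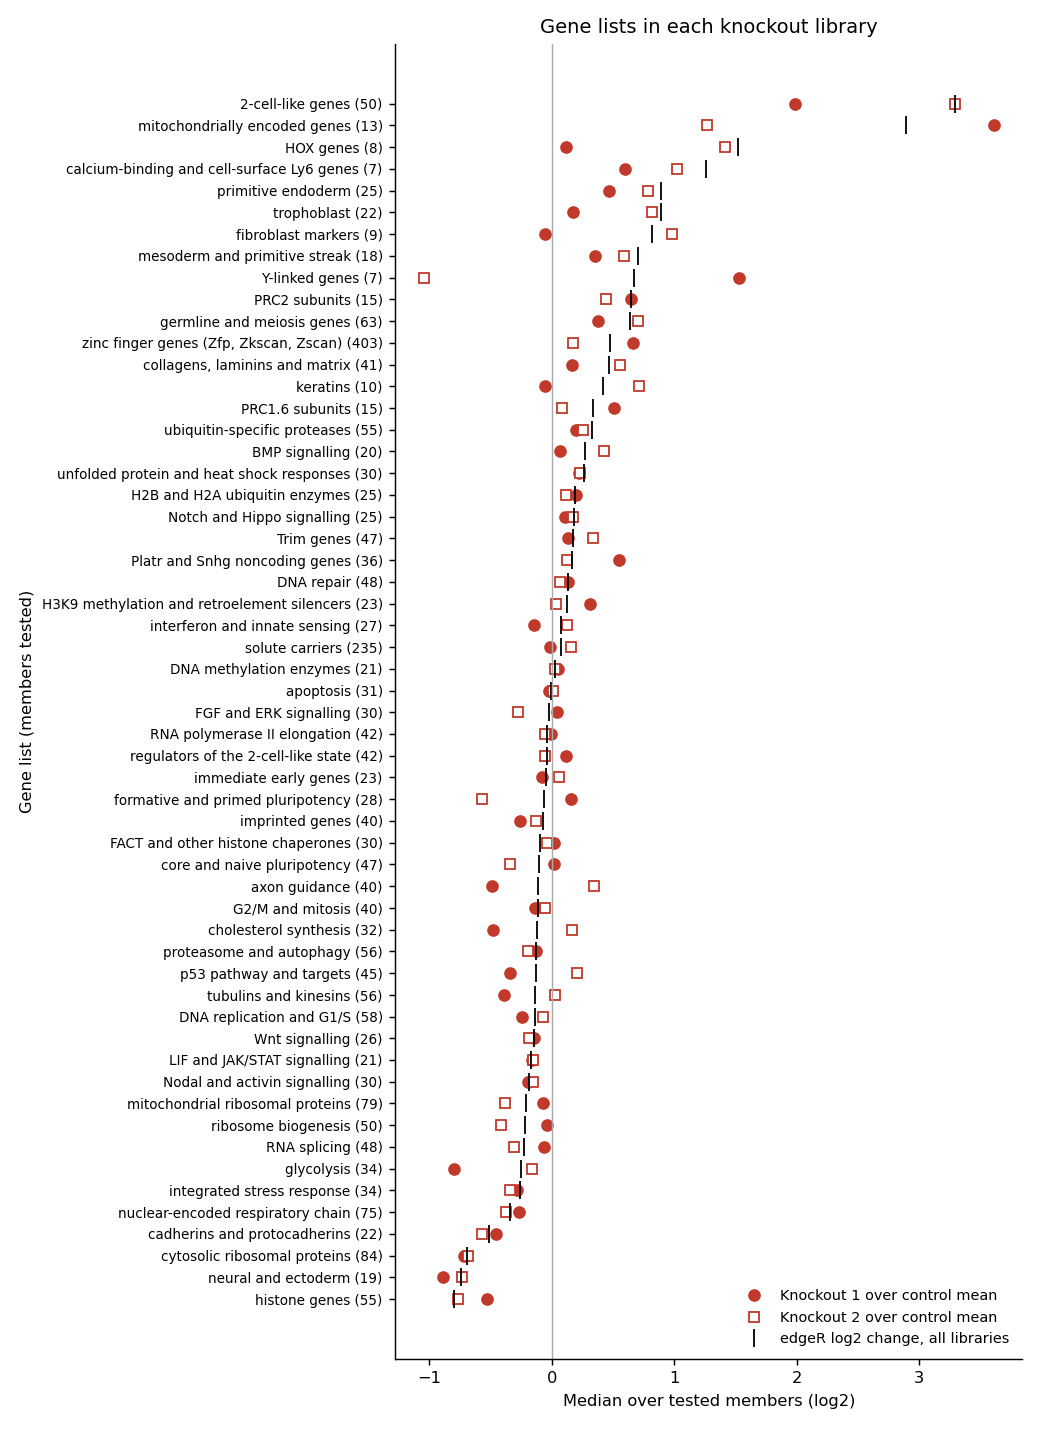
Median over the tested members of each gene list with at least 5 tested genes: log2 ratio to the control mean in knockout replicate 1 (filled) and replicate 2 (open), and the edgeR log2 change over all 4 libraries (bar). The 2-cell-like list is highest at 3.29 and histone genes lowest at -0.80; glycolysis, cholesterol synthesis and axon guidance genes are lower in replicate 1 than in replicate 2.

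Of 63 tested germline and meiosis genes, 11 rose (17.5%, beside 3.39% of all tested genes) and none fell, with a median log2 change of 0.64. After the GC and length correction 5 were called higher, beside 1.37% of all tested genes. Stra8, which opens the way into meiosis, measured 25.3 and 19.9 CPM in controls and 86.8 and 108.5 CPM in knockout (log2 change 2.11, SE 0.30, edgeR adjusted p = 0.008). Rnf17 and Mael, genes of the piRNA pathway, measured 7.22 and 14.7 against 65.9 and 58.5 CPM and 8.47 and 10.9 against 28.6 and 36.6 CPM. Meioc, which keeps germ cells in meiotic prophase, went from 6.50 and 11.7 to 64.9 and 39.6 CPM. The groups did not overlap in these 4 genes. Hormad1, a protein of the unpaired chromosome axis, measured 2.69 and 2.66 CPM in controls but 43.7 and 6.15 CPM in knockout, so its log2 change of 3.21 (SE 0.75) rests mainly on replicate 1. Without it the change was 1.14 (adjusted p = 0.22). Stk31, a kinase-like gene of the testis, had 84 and 114 counts in controls against 447 and 338, and Taf7l, a germ cell variant of a basal transcription factor subunit, rose 4.58-fold. Hormad1, Stk31, Taf7l and Mael did not pass after the GC and length correction. Stra8, Rnf17, Mael, Meioc, Stk31 and Taf7l were named after their values were seen.

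Germline promoters are known for an E-box-like hexamer, CACGTG, which is its own reverse complement and so reads the same on both strands. It was searched in the RefSeq promoter windows of 250 bases before to 50 bases after the start, a search chosen after the values were seen. Of 52 tested germline genes with a window 16 held it (30.8%), against 11.6% of all 11106 tested genes with one and 9.61% of 281 genes that rose and have one. Within the germline list it was in 4 of 9 genes that rose (44.4%) and 12 of 43 that were not called (27.9%). A match is a description and not a bound site. The windows of 150 bases around it are printed for Hormad1 (chr3:95559577-95559726, plus strand), Stk31 (chr6:49395412-49395561, plus strand) and Taf7l (chrX:134476462-134476611, minus strand), as examples of genes that rose and hold it, with the matches in capitals.
Hormad1: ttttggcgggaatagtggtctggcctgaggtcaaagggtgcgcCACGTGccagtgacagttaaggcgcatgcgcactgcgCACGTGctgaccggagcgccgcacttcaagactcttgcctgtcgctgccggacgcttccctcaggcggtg
Stk31: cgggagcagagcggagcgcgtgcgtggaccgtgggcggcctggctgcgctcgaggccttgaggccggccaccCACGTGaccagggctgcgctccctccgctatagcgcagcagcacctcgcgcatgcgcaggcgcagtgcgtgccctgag
Taf7l: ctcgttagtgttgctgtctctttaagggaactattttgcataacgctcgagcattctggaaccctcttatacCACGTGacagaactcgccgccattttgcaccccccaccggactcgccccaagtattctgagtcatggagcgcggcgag

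Few genes of other lineages were called, and 3.39% of all tested genes rose. Marker sums for primitive endoderm and trophoblast were higher in knockout, as given above, and their part was not tested. Dab2, an endocytic adaptor of primitive endoderm, had 9 and 22 counts in controls and 82 and 149 in knockout (log2 change 2.87, SE 0.64, edgeR adjusted p = 0.035) and was the called member of 25 tested primitive endoderm genes (4.0%, median 0.89), a list with 3 higher calls after the GC and length correction. Of 22 tested trophoblast genes (median 0.89), 3 rose (13.6%), and 2 were called after the correction. Esx1, a placental homeobox gene, rose from 2.23 and 2.27 to 10.7 and 16.2 CPM. Gata3, a trophoblast transcription factor gene, also rose, on 1 control count against 29 (ratio 28.5, interval 4.73 to 1166). The third was Igf2, given above with the imprinted genes. Of 8 tested HOX genes and 18 mesoderm and primitive streak genes none was called. Their median log2 changes were 1.52 and 0.70, and low members of such lists can pass the filter through the knockout libraries alone. The 18 included Hand1, a mesoderm and trophoblast factor, at 0.79 and 0.74 against 3.68 and 4.39 CPM (adjusted p = 0.061).

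Genes that rose were spread unevenly over the annotation. Of 98 tested unprocessed pseudogenes, 22 rose (22.4%). Beside them, 408 of 13528 protein-coding genes (3.02%) and 31 of 457 long intergenic noncoding genes (6.78%) rose. The 22 include the 4 genes on chromosome 1 whose reads cannot be told apart from mitochondrial ones, and members of other stretches. After the GC and length correction the 3 shares were 9.18%, 1.09% and 3.94%. Chromosomes 13, X, 12 and 3 had 7.63%, 5.95%, 5.93% and 5.64% of their tested genes higher, and chromosome 5 had 0.8%. The shares on 13, 12 and 3 include the stretches described above. Meis2, a homeobox gene, and the glutamate transporter gene Slc1a1 were among the higher genes outside them. Meis2 had 14 and 5 counts in controls and 252 and 52 in knockout, and Slc1a1 had 30 and 47 against 225 and 288.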

How the data were processed

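Polyadenylated RNA of 4 libraries was used. The authors deposited raw gene counts; per the submitters' processing notes the authors used cutadapt, HISAT2 and featureCounts on mm10, with versions, annotation release and strand mode not given in the sources used here. All 92 spike-in rows were 0, so changes are relative to the other genes. Symbols, positions, exon length and GC content came from GENCODE M21.

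Genes were filtered by filterByExpr, scaled by TMM and tested with edgeR 4.0.16 (R 4.3.3) by the quasi-likelihood F test on control and knockout only, with Benjamini-Hochberg adjustment over the 15757 genes tested. Standard errors were derived from the log2 change and the F statistic. A single library was counted as above or below at more than 2-fold from both controls. The steps were tested on simulated data. The alternatives were DESeq2 1.42.0, RLE factors, no filter, a stricter filter (1 CPM), leaving out each library, a replicate block, spline correction for GC and length (5 degrees of freedom) and a joint fit with the other 4 libraries.

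Named genes were Ssrp1, Supt16, Usp7, Pou5f1, Sox2, Nanog, the 12 largest called changes per direction (mean of at least 5 CPM in the higher group, groups separated, a count of at least 10, predicted and mitochondrial genes left out), up to 4 called members per direction of each of 56 gene lists, the 2 smallest p of lists without a call, the 6 largest differences per direction between knockout libraries, and called genes in stretches. The comparison, the lists and this rule were chosen with earlier results of these data known.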

Additional observations from a re-analysis of the deposited data

How the results depend on the processing

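Counts of calls moved with every choice but the size factors and the stricter filter: 1100 with DESeq2 (888 higher, 212 lower), 631 with RLE factors (565, 66), 1497 without a filter (1238, 259), 560 with the stricter filter (513, 47), 287 with the GC and length correction (216, 71) and 1314 in the joint fit of 8 libraries (1042, 272). The higher share was 80.7% with DESeq2, 82.7% without a filter and 79.3% in the joint fit. Leaving out 1 library gave 20 to 1884 calls, 16 to 1464 of them higher and 4 to 420 lower. The replicate block gave 988 (844, 144). The replicate numbers were not treated as pairs: same-numbered libraries had a correlation of deviations of 0.18 in 2 pairs, and no label ties them. Of 209 called genes named by rule none turned its direction, and 18 stayed called without control replicate 1, 103 without control replicate 2, 186 and 199 without knockout replicates 1 and 2, 188 with DESeq2 and 102 with the GC and length correction. Among genes not called, log2 changes that turned ranged, over the fits that leave out 1 library, from -2.28 to 0.30 for Dglucy, -2.47 to 0.10 for Ndufa4l2, -0.10 to 0.67 for Sox2, -0.27 to 0.065 for Usp7, -0.045 to 4.105 for Zfp808, -0.044 to 4.20 for Zfp979 and -0.36 to 4.20 for Zfp987, with the low end without knockout replicate 1 for Sox2, Usp7 and the zinc finger genes and the high end there for Dglucy and Ndufa4l2. With the GC and length correction Supt16 was at -0.088. The cause of these moves was not tested.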
